A study of Equus caballus with 45 samples.

Results

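Integrins and laminins were read in horse mesenchymal stromal cells (MSC) and in synoviocytes, chondrocytes and macrophages. The members were chosen by gene symbol: every integrin alpha chain, every integrin beta chain and every laminin alpha, beta or gamma chain in the count tables, with no measured value used in the choice. Of 20881 genes listed, 36 were members, namely 16 integrin alpha chains, 8 integrin beta chains and 12 laminin chains. ITGAV and ITGAD, which the choice also names, were not matched by symbol and are not analysed here.

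The study asked whether medium from MSC activated through innate immune receptors alters inflamed joint cells. MSC were grown from bone marrow of 3 horses of 1 breed, aged 3 to 4 years and coded PC, 99 and 92, and each donor gave 1 library untreated, 1 after the TLR3 agonist poly I:C, 1 after the STING agonist 2′3′-cGAMP and 1 labelled CpG (12 libraries). The agonists were given for 2 h, at 10 μg/mL in the study's methods and 10 ng/mL in the labels. The CpG exposure is known from the labels alone. In the methods the joint cells came from 1 healthy horse, synoviocytes and chondrocytes from a femoropatellar joint, and macrophages from blood monocytes. They received IL-1β together with TNF-α, and were cultured in medium of resting MSC (resting MSC-CM), of TLR3-activated MSC (TLR-MSC-CM) or of STING-activated MSC (STING-MSC-CM) for 24 h, then washed and cultured for 24 h more. The cytokine dose was 20 ng/mL in the methods, and the labels give 20 ng/mL for synoviocytes and 10 ng/mL for macrophages. Each cell type had 3 libraries per medium, coded PC, ORC and AG1, 1 library with cytokines alone and 1 with no addition (33 libraries). The labels enter these codes as the cell line. The methods name 3 MSC donors, but ORC and AG1 match none of the sequenced MSC, so whether a code stands for the MSC donor of the medium, the horse of the joint cells or a culture is not settled by the sources. Joint cell libraries are therefore grouped by code alone, and the medium, the horse, the plate and the passage cannot be told apart within it. For joint cells, the p-values between media or cell types measure the spread among these 3 codes, which may be in part technical. Tests between codes, or between MSC donors, use instead the spread among libraries of the same code or donor. Those libraries are not independent samples, so such tests speak of these codes and donors only.

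Integrins are cell surface receptors built from 1 alpha and 1 beta chain, and the pairing sets what a cell can hold on to: collagens, laminins, fibronectin and other proteins that carry an RGD motif, or counter-receptors on other cells. Laminins are secreted trimers of an alpha, a beta and a gamma chain that form the scaffold of basement membranes and are themselves integrin ligands. In a joint, chondrocytes and synovial cells hold on to their matrix through integrins, while the leukocyte integrins serve the adhesion and migration of immune cells.

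Library totals ran from 23525704 to 54103873 counts, so that 3 counts corresponded to 0.0557 to 0.129 counts per 1000000 (CPM) on the scale used here. CPM is not corrected for gene length, so its values compare libraries within a gene and not genes with each other. MSC and joint cell tables were normalised apart, and values of MSC beside joint cells were not tested. In bulk RNA, fewer cells of a type and less RNA per cell cannot be told apart.

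The labelled cell types were checked against marker genes. All 10 macrophage markers exceeded 1 CPM in every macrophage library, where their sum was 8287 to 11100 CPM, against at most 37.7 CPM in chondrocytes and 18.9 CPM in synoviocytes. Macrophage libraries also held lymphocyte RNA: 7 of 8 T and B cell markers exceeded 1 CPM in each, with CD3E at 60.5 to 122 CPM. The defining chondrocyte marker COL2A1 stayed at or below 0.381 CPM in all 11 chondrocyte libraries and HAPLN1 at or below 0.442 CPM, while ACAN ran from 6.05 to 96.6 CPM and SOX9 from 7.49 to 69.9 CPM. The cells labelled chondrocytes are called so here by label. All 7 listed synovial fibroblast markers exceeded 1 CPM in every synoviocyte, chondrocyte and MSC library.

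The members at high level differed between cell types. In every library, 7 members exceeded 100 CPM in MSC, 12 in synoviocytes, 9 in chondrocytes and 8 in macrophages. ITGA5, the alpha chain of the classical fibronectin receptor, ITGA7, ITGB1, the most widely paired beta chain, and ITGB5 passed this level in all 4 cell types. LAMB1, LAMB2 and LAMC1 passed it in MSC, synoviocytes and chondrocytes. At the other end, 6 members stayed under 1 CPM in every MSC library, 10 in synoviocytes, 9 in chondrocytes and 11 in macrophages. Of the macrophage set, 8 were laminin chains, and ITGA8 had 0 counts in all 11 macrophage libraries.

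**Figure D1:**
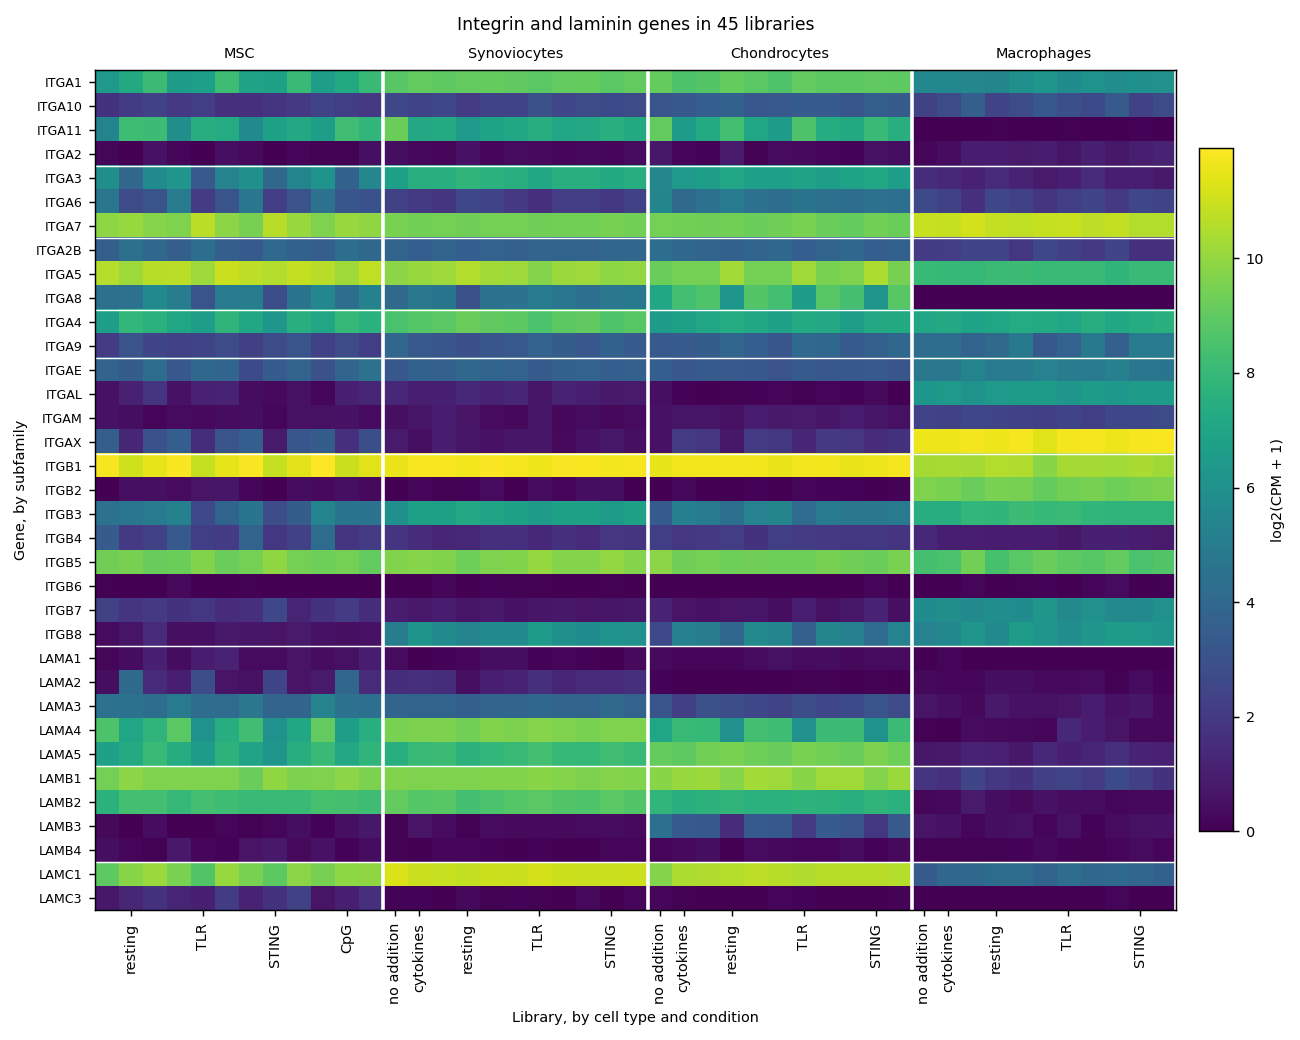
Level of 35 members (rows, by subfamily) in the 45 libraries (columns, by cell type and condition) as log2(CPM + 1), where resting, TLR and STING stand for the MSC treatment or for the medium. Macrophages have the leukocyte chains at the high end and most laminin chains at the low end, and ITGA8 is at 0 counts in all 11 macrophage libraries.

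The first comparison set the 3 joint cell types against each other in resting MSC-CM, with 3 libraries a group. Macrophages differed from both other cell types in most members: all 4 leukocyte alpha chains were higher, and of 11 laminin chains tested 9 were lower than in synoviocytes, with LAMB3 and LAMB4 not called. Against chondrocytes 9 of 11 laminin chains were lower, LAMA2 was higher and LAMB4 was not called. LAMA2 was near the floor, at 0.122 to 0.349 CPM in macrophages and 0 counts in chondrocytes. That makes it at least 2.74-fold higher, with 3 counts per library as the limit. Against synoviocytes, 28 of 35 members tested passed an adjusted p under 0.05 in edgeR's quasi-likelihood test (9 higher, 19 lower, 80.0%), where 71.6% of all 15599 genes did. Against chondrocytes, 29 of 35 members passed (11 higher, 18 lower, 82.9%), where 71.5% of all genes did. Chondrocytes and synoviocytes differed in fewer: 15 of 35 members passed (6 higher in chondrocytes, 9 lower, 42.9%), against 18.1% of all genes, and 9 members (11.5% of all genes) without the synoviocyte library coded PC. The median log2 fold change of the members was -1.07 for macrophages against synoviocytes, -1.66 against chondrocytes and -0.13 for chondrocytes against synoviocytes, while over all genes it was 0.04, 0.04 and 0.0. With members at 0 counts in 1 group set to their bound, the members' medians were -0.98, -1.23 and -0.09. These comparisons share groups, and each stands as its own values.

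Of the integrin beta chains, ITGB2, ITGB3 and ITGB7 were higher and ITGB1 and ITGB4 lower in both comparisons, ITGB5 was lower than in synoviocytes and ITGB8 higher than in chondrocytes.

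ITGB2, the shared beta chain of the leukocyte integrins, stood at 718, 740.3 and 586 CPM in macrophages in resting MSC-CM, in the order of codes PC, ORC and AG1. It stood at 0.282, 0.0721 and 0.0651 CPM in synoviocytes and at 0.0976, 0 and 0.0264 CPM in chondrocytes in the same order, the latter from 4 counts in all. No library of macrophages overlapped those of the other cells, and the test gave log2 fold change 12.21, SE 0.36, adjusted p = 7.23e-10 against synoviocytes and log2 fold change 13.81, SE 0.39, adjusted p = 5.37e-10 against chondrocytes. ITGAL, which pairs with ITGB2 to bind ICAM counter-receptors, read 90.4, 83.3 and 67.7 CPM in macrophages. It read 1.20, 1.59 and 1.04 CPM in synoviocytes and 0.0976, 0.0402 and 0.0264 CPM in chondrocytes, the latter from 5 counts. Synoviocytes thus lay between the other cell types for ITGAL: log2 fold change -4.46, SE 0.40, adjusted p = 3.93e-05 for chondrocytes against synoviocytes, and 5.97 and 10.43 (log2) for macrophages against synoviocytes and chondrocytes, with adjusted p = 1.53e-09 and 4.46e-10.

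ITGAX, a leukocyte alpha chain used as a marker of myeloid cells, ran from 2569.6 to 3586 CPM over all 11 macrophage libraries, against 0.245 to 0.944 CPM in synoviocytes and 0.479 to 3.38 CPM in chondrocytes. ITGAM, another myeloid alpha chain, ran from 3.56 to 5.64 CPM in macrophages and stayed under 1 CPM in every other library. Both lay without overlap above the other cell types. ITGAX, ITGAM and ITGAD are neighbouring paralogs, and how reads shared between them were counted is not given in the sources used here. ITGB7, which pairs with ITGA4 or ITGAE on lymphocytes, read 54.3, 56.9 and 50.9 CPM in macrophages, 0.776, 0.576 and 0.944 CPM in synoviocytes and 0.618, 0.523 and 0.476 CPM in chondrocytes. Its log2 fold changes were 6.11 and 6.63, with adjusted p = 5.09e-10 and 3.57e-10. ITGAE, a mucosal lymphocyte alpha chain, ran from 24.1 to 40.6 CPM in macrophages and from 8.81 to 14.6 CPM in synoviocytes. The T and B cell markers summed to 383 to 773 CPM in the macrophage libraries and to at most 5.99 CPM in synoviocytes and 7.21 CPM in chondrocytes. ITGAL, ITGB7, ITGAE and ITGB2 were likewise higher in macrophages than in both other cell types. The part of the lymphocyte markers in these differences was not tested.

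**Figure D2:**
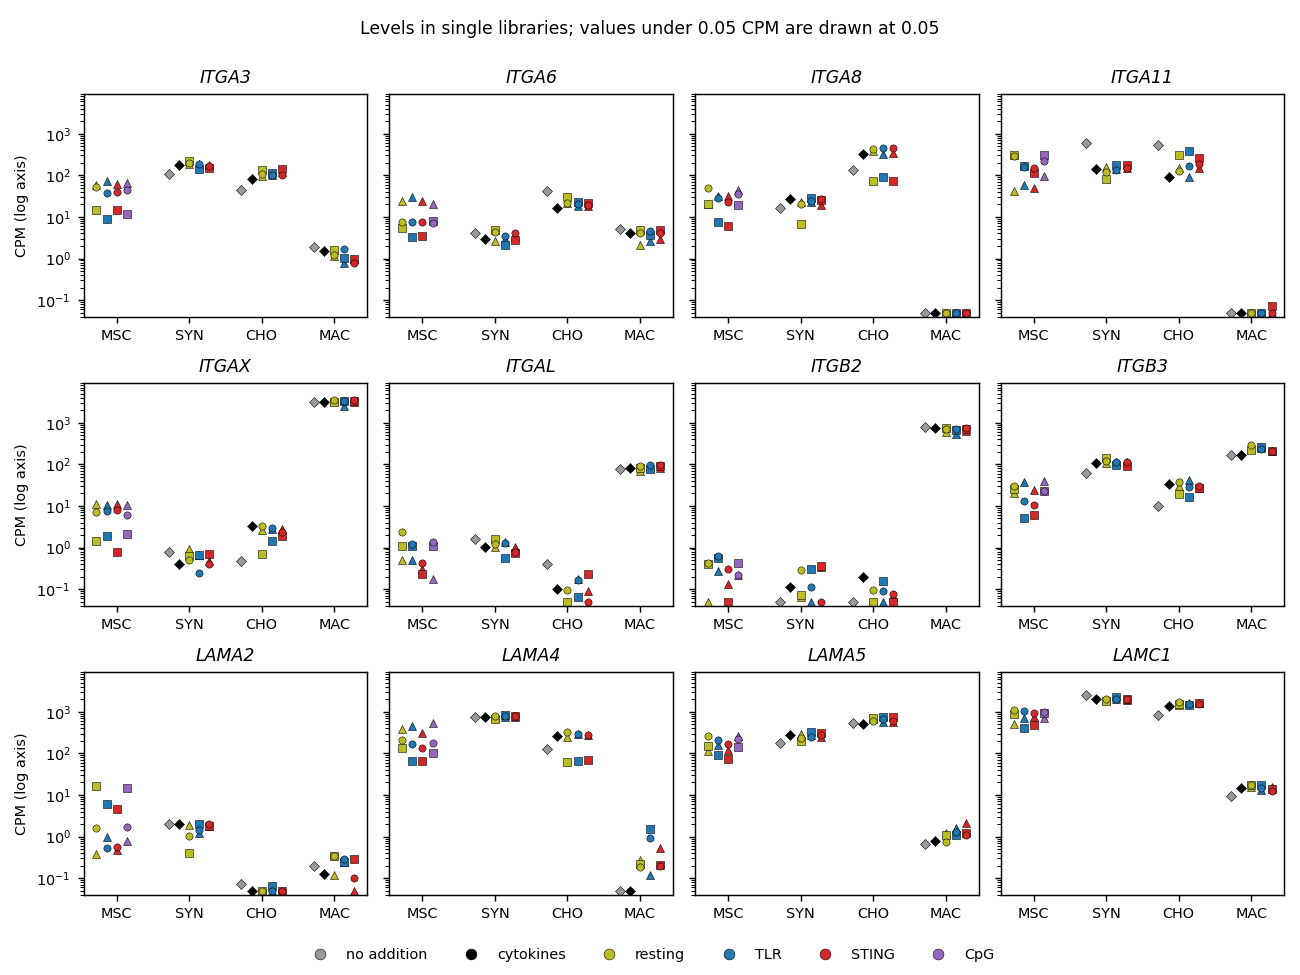
CPM on a log axis of 12 members in the 4 cell types (MSC; SYN, synoviocytes; CHO, chondrocytes; MAC, macrophages), 1 point per library, with values under 0.05 CPM drawn at 0.05; colours mark the condition, and circles stand for code PC, squares for 99 or ORC, triangles for 92 or AG1 and diamonds for libraries without medium. ITGB2 reads 586 to 740.3 CPM in macrophages in resting MSC-CM and under 1 CPM in every other cell type, while LAMC1, LAMA5 and LAMA4 are lowest in macrophages.

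Most laminin chains were low in macrophages. LAMC1, the gamma chain shared by most laminins, read 17.7, 17.6 and 15.4 CPM in macrophages, 2086, 1807 and 1952 CPM in synoviocytes and 1686, 1526 and 1441 CPM in chondrocytes. The groups lay far apart, with log2 fold change -6.86, SE 0.16, adjusted p = 2.24e-10 against synoviocytes and log2 fold change -6.54, SE 0.16, adjusted p = 2.37e-10 against chondrocytes. LAMA5, the alpha chain of laminins of many mature basement membranes, read 0.725, 1.12 and 1.24 CPM in macrophages, 239, 199.7 and 288 CPM in synoviocytes and 615, 727 and 661 CPM in chondrocytes. It was lower in macrophages, with log2 fold changes of -7.89 and -9.36 (adjusted p = 8.38e-10 and 3.56e-10), and it was higher in chondrocytes than in synoviocytes (log2 fold change 1.47, SE 0.17, adjusted p = 0.000222). LAMB1 and LAMB2, the main beta chains, ran from 2.06 to 5.31 and 0.146 to 0.803 CPM over the macrophage libraries, and from 749 to 892 and 330.1 to 529 CPM in synoviocytes.

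Among laminin alpha chains, LAMA4, a chain of vascular and mesenchymal laminins, read 797, 671 and 760.4 CPM in synoviocytes and 321, 63.8 and 251 CPM in chondrocytes (codes PC, ORC, AG1). The chondrocyte library coded ORC was the lowest of the 3, and the difference was log2 fold change -1.80, SE 0.43, adjusted p = 0.0159. LAMA3, an epithelial-type chain, ran from 11.1 to 16.1 CPM in the 9 synoviocyte libraries given medium and from 4.51 to 7.67 CPM in chondrocytes. LAMA2, the laminin alpha chain of muscle, read 1.02, 0.396 and 1.95 CPM in synoviocytes and had 0 counts in all 3 chondrocyte libraries in resting MSC-CM, which makes it at least 11.3-fold lower there with 3 counts per library as the limit. LAMB3, a beta chain of epithelial laminin, went the other way: 9.27, 1.85 and 8.86 CPM in chondrocytes and 0.282, 0.036 and 0.261 CPM in synoviocytes (log2 fold change 5.08, SE 0.74, adjusted p = 0.000966).

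Alpha chains that bind matrix also separated the cell types. ITGA3, a laminin receptor chain, read 195, 219.9 and 185 CPM in synoviocytes, 105, 132 and 98.6 CPM in chondrocytes and 1.21, 1.64 and 1.17 CPM in macrophages. It was lower in chondrocytes than in synoviocytes (log2 fold change -0.83, SE 0.14, adjusted p = 0.00198) and lower again in macrophages (log2 fold change -7.26 and -6.43, adjusted p = 3.44e-10 and 5.3e-10). ITGA6, another laminin receptor chain, had the opposite order in the stromal cells, at 21.8, 29.4 and 21.1 CPM in chondrocytes and 4.34, 4.90 and 2.57 CPM in synoviocytes (log2 fold change 2.62, SE 0.31, adjusted p = 0.000248). ITGA7, the laminin receptor chain of muscle, ran from 1468 to 2229.6 CPM in macrophages against 636 to 741 CPM in synoviocytes and 556 to 731 CPM in chondrocytes. In a RefSeq annotation of another assembly, ITGA7 overlaps TMT1B, which has no row of its own in the count tables, so reads of both genes could not be told apart. The same holds for ITGAL with SEPHS2, ITGA1 with PELO and ITGB8 with a protein-coding gene that has no symbol. ITGA4 overlaps CERKL and ITGAE overlaps HASPIN, which have rows of their own, and how reads in the overlap were assigned is not given in the sources used here.

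ITGA4, which binds VCAM1 and fibronectin, read 512, 580.4 and 464 CPM in synoviocytes, 139, 161 and 133 CPM in chondrocytes and 161, 127 and 120.3 CPM in macrophages. Synoviocytes were the highest, with log2 fold change -1.84, SE 0.15, adjusted p = 1.85e-05 for chondrocytes and log2 fold change -1.94, SE 0.15, adjusted p = 5.89e-07 for macrophages. Macrophages and chondrocytes overlapped for ITGA4 (log2 fold change -0.10, SE 0.14, adjusted p = 0.555). ITGB3, which pairs with ITGAV and ITGA2B to bind RGD proteins, read 285, 224 and 239 CPM in macrophages, 124, 144 and 108 CPM in synoviocytes and 37.7, 19.7 and 29.7 CPM in chondrocytes. This order of macrophages over synoviocytes over chondrocytes held in each code, and chondrocytes against synoviocytes gave log2 fold change -2.10, SE 0.22, adjusted p = 0.000105.

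ITGA8, an RGD-binding alpha chain of smooth muscle and mesenchymal cells, read 421, 74.6 and 392 CPM in chondrocytes and 20.9, 6.74 and 23.4 CPM in synoviocytes (log2 fold change 4.12, SE 0.70, adjusted p = 0.00462). Its 0 counts in macrophages made it at least 181-fold lower than in synoviocytes and at least 3141-fold lower than in chondrocytes, with the same limit. ITGA11, a fibroblast collagen receptor chain, had 1 count over the 3 macrophage libraries and 119, 83 and 156 CPM in synoviocytes. The ratio of synoviocytes to macrophages was 12266, with a 95% exact counting interval from 2201 to 484513 that covers counting error only. ITGA10, a collagen receptor chain of cartilage, ran from 8.20 to 12.2 CPM in the 9 chondrocyte libraries given medium and from 3.28 to 6.86 CPM in synoviocytes. ITGA1, a collagen receptor chain, ran from 448 to 555 CPM in synoviocytes, 378 to 557 CPM in chondrocytes and 43.8 to 74.9 CPM in macrophages. ITGA2 stayed at or below 1.21 CPM in all 45 libraries.

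Beta chains other than the leukocyte ones differed less. ITGB1, which pairs with the collagen- and laminin-binding alpha chains, ran from 3082 to 3741 CPM in synoviocytes, 2801 to 3454 CPM in chondrocytes and 889 to 1505 CPM in macrophages, and was lower in macrophages (log2 fold change -1.32 and -1.23, adjusted p = 4.87e-06 and 8.62e-06). ITGB5 ran from 614 to 1059.9, 607 to 921 and 334 to 666 CPM in the same order of cell types, and passed the test against synoviocytes alone (log2 fold change -0.57, SE 0.21, adjusted p = 0.0297). Chondrocytes and synoviocytes did not differ past the test in 7 of 8 beta chains, ITGB3 being the one called. ITGB6, an epithelial chain, stayed at or below 0.291 CPM in all 45 libraries, as did LAMB4 at or below 0.748 CPM.

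ITGA5 with ITGB1 makes the main fibronectin receptor. ITGA5 read 1225, 1500.0 and 1143 CPM in synoviocytes, 678, 1240.3 and 681 CPM in chondrocytes and 287, 278 and 246 CPM in macrophages, lowest in macrophages with every code (log2 fold change -2.26, SE 0.24, adjusted p = 7.83e-06 against synoviocytes). ITGA9 went the other way, with 27, 16.4 and 12.7 CPM in macrophages and 8.11, 6.63 and 8.08 CPM in synoviocytes (log2 fold change 1.29, SE 0.26, adjusted p = 0.000991).

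MSC are shown beside the joint cells without a test. Over the 12 MSC libraries ITGA5 ran from 1153 to 2026 CPM, ITGB1 from 1841 to 3866 CPM, LAMC1 from 415 to 1118 CPM and LAMB1 from 582 to 985 CPM, all above the 11 macrophage libraries. ITGB8 was at 0.291 to 1.72 CPM in MSC, under every joint cell library (30.7 to 91.8 CPM in synoviocytes, 5.16 to 48.6 in chondrocytes and 37.7 to 92.2 CPM in macrophages). ITGB4 ran from 2.49 to 17.6 CPM in MSC and 1.37 to 2.75 CPM in synoviocytes, and LAMC3, a laminin chain outside the common trimers, from 0.544 to 4.07 CPM in MSC and at most 0.229 CPM in any joint cell library. ITGAX ran from 0.796 to 11.4 CPM in MSC while the macrophage marker PTPRC was at most 0.242 CPM.

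The separation of joint cells held over the 3 media. Comparing the 9 chondrocyte with the 9 synoviocyte libraries given medium, 14 of 36 members had no overlap (18.0% of all 15266 genes did): ITGA6, ITGA8, ITGA10, LAMA5 and LAMB3 were higher in chondrocytes, and ITGA3, ITGA4, ITGAL, ITGB3, LAMA2, LAMA3, LAMA4, LAMB2 and LAMC1 were lower. Macrophages had no overlap with synoviocytes in 26 of 36 members (61.2% of all genes) and none with chondrocytes in 27 of 36 (58.2%). The same 3 codes recur in these 9 libraries, which are not 9 independent samples.

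In MSC more members passed the test between donors than between agonist conditions, but the fits were unlike. The donor fit held the condition, while the main agonist fits left the donor out. Between the 3 donors, with condition in the fit, 23 of 36 members passed an adjusted p under 0.05 (63.9%), where 55.9% of all 15099 genes did. The median difference between the highest and the lowest donor was 1.39 on the log2 scale for the members and 0.72 for all genes. By subfamily, 5 of 5 laminin alpha chains, 3 of 3 laminin-binding and 3 of 3 RGD-binding alpha chains passed, and 0 of 4 laminin beta chains. Of the beta chains, LAMB3 and LAMB4 stayed under 1 CPM in every MSC library. ITGA4 and ITGA9 did not pass, and each other subfamily passed in part.

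LAMA4 ran from 304 to 525 CPM over the 4 libraries of donor 92, from 136 to 213 CPM in donor PC and from 64.8 to 134 CPM in donor 99. The 3 donors did not overlap (largest donor difference 2.23 log2, adjusted p = 5.1e-06). ITGA3 ran from 59.6 to 74.4 CPM in donor 92, 38.5 to 52.1 CPM in donor PC and 9.15 to 14.5 CPM in donor 99, again with no overlap (2.40 log2, adjusted p = 2.17e-06). ITGAX followed the same donor order, with 10.4 to 11.4, 6.18 to 8.02 and 0.796 to 2.14 CPM (2.81 log2, adjusted p = 2.14e-05). The order of donors 92, PC and 99 was not general. Marker lists differed between the donors as well. The 5 smooth muscle and pericyte markers summed to 10114 to 13575 CPM in donor 92, 7957 to 10154 CPM in donor PC and 5354 to 6503 CPM in donor 99, the same order, with an overlap of donors 92 and PC. The 6 MSC markers summed to 1668 to 2031 CPM in donor 92, 1284 to 1644 CPM in donor 99 and 965 to 1218 CPM in donor PC, without overlap. Their part in the members' differences was not tested.

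ITGA1 was highest in donor PC, at 263 to 294 CPM, with donors 99 and 92 at 104 to 149 and 82.4 to 117 CPM. LAMA2 was highest in donor 99, at 4.57 to 16.1 CPM, against 0.524 to 1.74 CPM in donor PC and 0.374 to 0.97 CPM in donor 92 (3.84 log2, adjusted p = 1.72e-05). All 4 libraries of donor 92 lay above those of both other donors in 8 members (11.4% of all genes) and below in 2 (12.1%). Those of donor 99 lay above in 3 (5.49%) and below in 5 (6.13%), and those of donor PC above in 2, ITGA1 among them (8.06%), and below in 0 (7.38%).

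**Figure D3:**
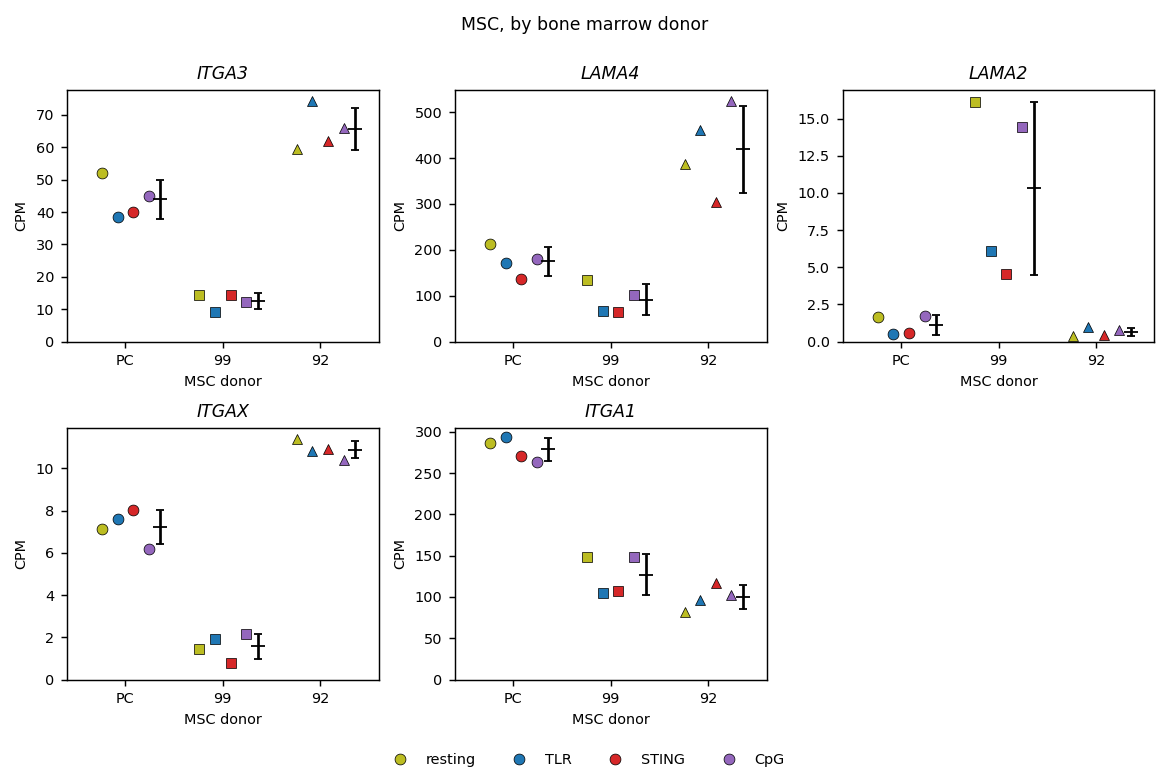
CPM (linear axis) of 5 members in the 3 MSC donors, 1 point per library coloured by condition, where resting means untreated, with the mean ± SD of each donor's 4 libraries beside the points. LAMA4 lies between 304 and 525 CPM in donor 92 and between 64.8 and 134 CPM in donor 99, and ITGA1 is highest in donor PC.

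Neither agonist moved a member past the test in MSC. With TLR3 agonist against untreated, STING agonist against untreated, STING against TLR3 agonist and CpG against untreated, 0 of 36 members passed an adjusted p under 0.05, as did 0.0% of all genes in each comparison. At an unadjusted p under 0.05, the members numbered 0 (1.15% of all genes), 1 (2.1%), 0 (0.242%) and 0 (0.305%), and DESeq2 called 0 members in each. The member with STING agonist was ITGAL, at 0.427, 0.231 and 0.3 CPM with STING agonist and 2.43, 1.10 and 0.498 CPM untreated (donors PC, 99, 92). It was lower in 3 of 3 donors without overlap of the groups, with no library over 2.43 CPM (log2 fold change -2.03, SE 0.70, adjusted p = 1). With TLR3 agonist ITGAL read 1.23, 1.11 and 0.499 CPM, and STING against TLR3 agonist gave log2 fold change -1.56, SE 0.69, adjusted p = 1.

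With the donor as a block, 10 of 36 members had an unadjusted p under 0.05 for STING agonist against untreated (9.48% of all genes), and 0 passed after adjustment. They were ITGAL (adjusted p = 0.18), LAMA4, LAMC3, ITGB3, LAMA2, ITGB5, ITGA11, LAMB4, LAMA5 and ITGAE. ITGB5, a vitronectin receptor chain, read 688, 970.1 and 682 CPM with STING agonist and 566, 717 and 643 CPM untreated, higher in 3 of 3 donors (log2 fold change 0.32, SE 0.23, adjusted p = 1 without the block).

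In single donors some members differed by more than the group means. In donor 99, ITGB3 read 24.9 CPM untreated, 5.27 with TLR3 agonist, 5.98 with STING agonist and 23.1 CPM with CpG. ITGA4 in this donor read 237, 99.2, 76.9 and 242 CPM in the same order. In donor 92, ITGB3 read 20.5, 36.9, 23.8 and 40.0 CPM, and ITGA4 99.4, 127, 137 and 127 CPM. With 1 library per donor and condition, the difference between donors in the response had no replicate and was not tested. These genes were picked after their values were seen. CD68, on the macrophage marker list, also differed with the agonists: 12.1, 15.2 and 12.7 CPM untreated, 139, 123 and 9.78 with TLR3 agonist and 188, 324 and 50.8 with STING agonist, while CSF1R stayed at or below 0.311 CPM and TYROBP at or below 0.198 CPM. The part of this list in the members' values was not tested.

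For TLR3 agonist the smallest p-values among members belonged to LAMB3, at or below 0.69 CPM in every MSC library, and ITGB8, a chain of a receptor that activates latent TGF-β. ITGB8 read 0.765, 0.407 and 0.416 CPM with TLR3 agonist, 0.497, 0.386 and 0.494 with CpG and 1.72, 0.621 and 0.291 CPM untreated. Of these 9 libraries the untreated one of donor PC alone passed 1 CPM. The log2 fold change was -0.69 for TLR3 agonist and -0.92 for CpG (adjusted p = 1 for both), and 0.25 and 0.014 without that library. LAMA3 read 19.7, 20.6 and 38.6 CPM with CpG and 18.6, 21.8 and 21.8 CPM untreated (log2 fold change 0.34, adjusted p = 1), and -0.042 without the CpG library of donor 92. LAMA1, an embryonic laminin chain, read 0.541, 0.282 and 0.267 CPM with STING agonist and 1.21, 0.927 and 0.305 CPM with TLR3 agonist (log2 fold change -1.16, SE 0.87, adjusted p = 1).

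In synoviocytes no member passed the test between media. The counts were 0 of 35 members for TLR-MSC-CM against resting MSC-CM, STING-MSC-CM against resting MSC-CM and STING-MSC-CM against TLR-MSC-CM, with 0.0% of all 14584 genes in each, and DESeq2 called 0 members. At an unadjusted p under 0.05 there were 7 members (10.0% of all genes), 6 (7.6%) and 0 (2.02%). For TLR-MSC-CM these included ITGA9, ITGB5 and ITGB8 with higher values and ITGA3, ITGA5 and ITGB3 with lower ones. For STING-MSC-CM they were ITGA9, ITGB5 and ITGA11 with higher and ITGA3, ITGA5 and ITGB3 with lower values. Both comparisons use the same 3 resting libraries.

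ITGA9, a receptor chain for tenascin and osteopontin, read 8.11, 6.63 and 8.08 CPM in resting MSC-CM, 10.3, 12.5 and 9.04 in TLR-MSC-CM and 9.73, 11.8 and 8.37 CPM in STING-MSC-CM (codes PC, ORC, AG1). It was higher in 3 of 3 codes with either medium (log2 fold change 0.47, SE 0.15, adjusted p = 0.494 and log2 fold change 0.38, SE 0.15, adjusted p = 0.634). ITGB8 read 52.9, 38.8 and 52 CPM in resting MSC-CM, 61.8, 91.8 and 52.6 in TLR-MSC-CM and 63.7, 65.7 and 54.5 CPM in STING-MSC-CM, with log2 fold change 0.51, SE 0.17, adjusted p = 0.494 for TLR-MSC-CM. ITGA3 read 195, 219.9 and 185 CPM in resting MSC-CM, 184, 141 and 185 in TLR-MSC-CM and 169, 150.1 and 178 CPM in STING-MSC-CM, with log2 fold change -0.27, SE 0.11, adjusted p = 0.634 for STING-MSC-CM. The ORC library in resting MSC-CM was the lowest of the 9 for ITGA9 and ITGB8 and the highest for ITGA3.

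That library stood apart in other members too. ITGA8 read 20.9, 6.74 and 23.4 CPM in resting MSC-CM and from 19.5 to 29.1 CPM in the other media. ITGA5 read 1225, 1500.0 and 1143 CPM in resting MSC-CM and from 845 to 1169 CPM in the other media. Between codes, 0 of 35 members passed the test (0.0% of all genes) and 0 had an unadjusted p under 0.05 (2.83%), while without the ORC library in resting MSC-CM 8 members and 710 of all 14498 genes (4.9%) passed. ITGB1 had the smallest p, at 3170.1 to 3339 CPM with ORC and 3493 to 3741 and 3448 to 3560.4 CPM with PC and AG1 (adjusted p = 1). Between STING-MSC-CM and TLR-MSC-CM, ITGA2B read 14.5, 14.5 and 13.1 CPM with STING-MSC-CM and 13.1, 14 and 11.5 CPM with TLR-MSC-CM. ITGA6 read 4.03, 2.83 and 3.48 CPM and 3.43, 2.10 and 2.95 CPM, and both had adjusted p = 1.

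In chondrocytes the media again moved no member past the test. The counts were 0 of 33 members in each of the 3 comparisons, with 0.0% of all 14304 genes, and 0 members at an unadjusted p under 0.05 (0.559% of all genes for the TLR-activated, 0.909% for the STING-activated medium, and 0.811% for one against the other). DESeq2 called 0. ITGA6 read 21.8, 29.4 and 21.1 CPM in resting MSC-CM, 20.3, 23.1 and 18.5 in TLR-MSC-CM and 19.3, 21.1 and 18.5 CPM in STING-MSC-CM, the lower value with either activated medium in 3 of 3 codes (log2 fold change -0.23, SE 0.14, adjusted p = 1 and log2 fold change -0.30, SE 0.14, adjusted p = 1). LAMA1 stayed at or below 0.455 CPM in every chondrocyte library. ITGB4, the hemidesmosome chain that pairs with ITGA6, read 2.43, 2.76 and 2.78 CPM in STING-MSC-CM and 2.93, 3.36 and 3.67 CPM in TLR-MSC-CM (log2 fold change -0.32, SE 0.20, adjusted p = 1). LAMA3 read 5.65, 7.67 and 5.40 CPM in STING-MSC-CM and 4.73, 6.10 and 4.51 CPM in TLR-MSC-CM (log2 fold change 0.29, SE 0.20, adjusted p = 1).

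The code separated the chondrocyte libraries, but the fits were unlike here too. The fit between codes held the medium, while the main fits between media left the code out. Between codes, with medium type in the fit, 17 of 33 members passed an adjusted p under 0.05 (51.5%), where 40.1% of all genes did. The median difference between the highest and lowest code was 0.37 on the log2 scale for members and 0.33 for all genes. The 3 libraries coded ORC lay above all 6 others in 7 members (18.8% of all genes) and below them in 8 (18.3%). Among those above were ITGA1, ITGA5, ITGA7, ITGA11, LAMA5 and LAMB2, and below were ITGA8, ITGAX, ITGB3, ITGB5, ITGB8, LAMA4, LAMB1 and LAMB3.

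LAMA4 read 321, 63.8 and 251 CPM in resting MSC-CM, 287, 64.9 and 296 in TLR-MSC-CM and 277, 67.9 and 282 CPM in STING-MSC-CM for codes PC, ORC and AG1 (largest difference between codes 2.17 log2, adjusted p = 9.39e-11). ITGA8 read 421, 74.6 and 392 CPM in resting MSC-CM, 453, 92.7 and 319 in TLR-MSC-CM and 450.1, 73.4 and 335 CPM in STING-MSC-CM (2.46 log2, adjusted p = 3.22e-10). Both genes were lowest with ORC in each of the 3 media. ITGA5 was highest with ORC, at 1192 to 1380.4 CPM against 678 to 785 CPM in the 6 others (adjusted p = 8.24e-08). LAMB3 ran from 1.85 to 3.14 CPM with ORC and 7.81 to 10.2 CPM in the others, and ITGB8 from 11.5 to 17 and 31 to 48.6 CPM, both lower with ORC (adjusted p = 5.34e-07 and 6.92e-07).

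The libraries without medium, labelled ORC as well, fell on different sides. With cytokines alone, LAMA4 read 264, ITGA8 321 and ITGA5 697 CPM, each within the range of PC and AG1. With no addition, LAMA4 read 128 and ITGA8 137 CPM, between ORC and the others, and ITGA5 599 CPM, below all libraries given medium. Of the marker lists, 4 separated ORC from the other codes. The 10 chondrocyte markers summed to 496 to 644 CPM with ORC, 159 to 244 CPM in the 6 others, 734 CPM with no addition and 163 CPM with cytokines alone, SOX9 among them at 9.27, 65.7 and 9.87 CPM in resting MSC-CM. The 5 smooth muscle and pericyte markers summed to 3414 to 3604 CPM with ORC and 1286 to 1847 CPM in the others. In the same order, the 7 synovial fibroblast markers summed to 83002 to 94472 and 49374 to 63126 CPM. The 7 endothelial markers summed to 87.4 to 92.9 and 56.7 to 69.1 CPM. Of that list PECAM1 read 55.6 to 92.4 CPM over all chondrocyte libraries, and every other gene at most 1.51 CPM. The part of these lists in the members' differences was not tested.

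**Figure D4:**
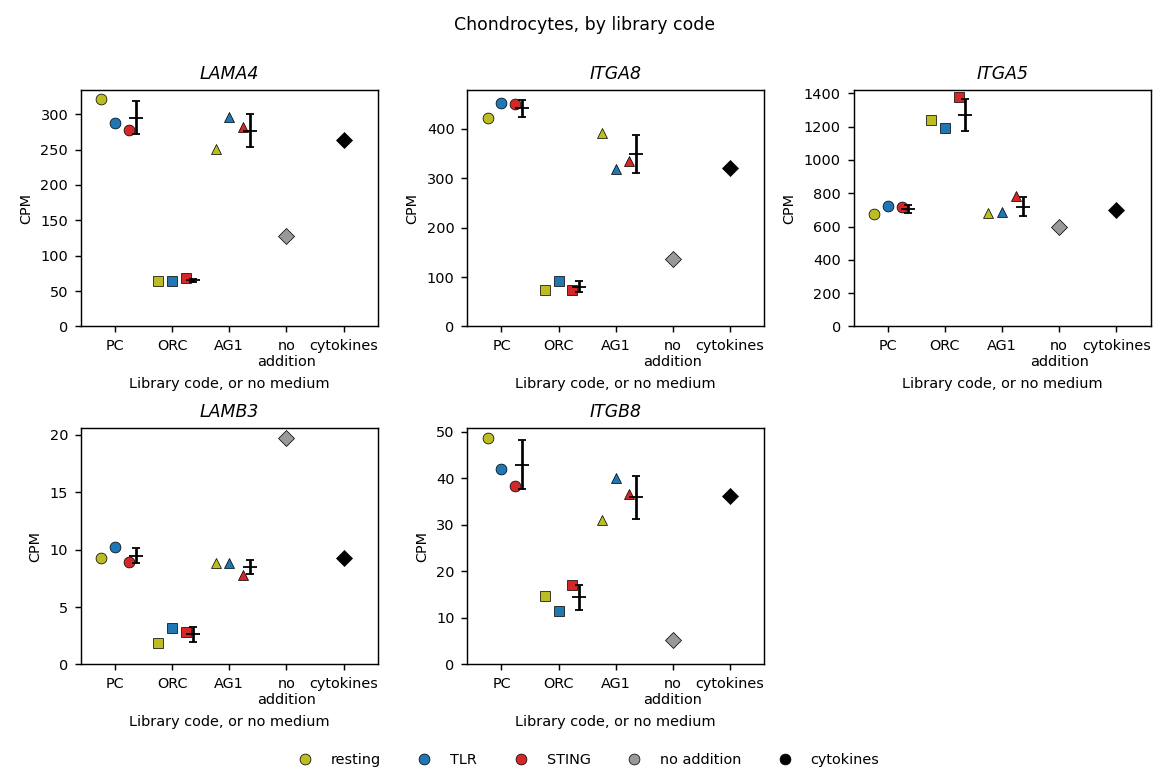
CPM (linear axis) of 5 members in chondrocytes by library code, 1 point per library coloured by medium, with the mean ± SD of the 3 media beside the points and single libraries with no addition or cytokines alone at the right. The ORC libraries stand apart in each of the 3 media, for example LAMA4 at 63.8 to 67.9 CPM against 251 to 321 CPM with AG1 and PC.

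In macrophages, 0 of 32 members passed the test in any of the 3 comparisons of media, with 0.0% of all 15052 genes in each, and DESeq2 called 0. At an unadjusted p under 0.05 there were 2 members for TLR-MSC-CM against resting MSC-CM (2.13% of all genes), 0 for STING-MSC-CM (4.76%) and 1 for STING-MSC-CM against TLR-MSC-CM (6.6%). ITGA1 read 62.1, 43.8 and 44.7 CPM in resting MSC-CM and 66.7, 55.4 and 74.9 CPM in TLR-MSC-CM, higher in 3 of 3 codes (log2 fold change 0.39, SE 0.15, adjusted p = 0.998). LAMA4 read 0.188, 0.215 and 0.268 CPM in resting MSC-CM and 0.938, 1.51 and 0.121 CPM in TLR-MSC-CM, at most 1.51 CPM in any macrophage library (log2 fold change 1.90, SE 0.77, adjusted p = 0.998).

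ITGAM read 5.64, 4.99 and 5.02 CPM in STING-MSC-CM, 3.56, 4.29 and 3.74 in TLR-MSC-CM and 4.08, 4.61 and 4.87 CPM in resting MSC-CM. STING-MSC-CM lay above TLR-MSC-CM in 3 of 3 codes without overlap (log2 fold change 0.43, SE 0.15, adjusted p = 0.736). ITGB3 read 212, 213 and 214 CPM in STING-MSC-CM, 232, 259.8 and 249 in TLR-MSC-CM and 285, 224 and 239 CPM in resting MSC-CM (log2 fold change -0.22, SE 0.10, adjusted p = 0.907 for STING-MSC-CM against resting). LAMB2 stayed at or below 0.803 CPM in every macrophage library.

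Between codes, 7 of 32 members passed in macrophages (21.9%), where 15.4% of all genes did. This fit held the medium, while the main fits between media left the code out. Without the resting library of AG1 the count was 1 (6.58% of all genes), and without the resting or the TLR-MSC-CM library of PC it was 4 each (6.82% and 8.56%). ITGA9 read 27, 16.4 and 12.7 CPM in resting MSC-CM, 27.7, 12.6 and 8.63 in TLR-MSC-CM and 27.8, 29.6 and 11.8 CPM in STING-MSC-CM for codes PC, ORC and AG1, lowest with AG1 in each (largest difference between codes 1.31 log2, adjusted p = 0.00333). ITGAE ran from 35.7 to 40.6 CPM with AG1 and from 24.1 to 30.3 and 24.4 to 32.3 CPM with PC and ORC (adjusted p = 0.00523). The AG1 libraries were above the others in ITGAE, ITGA10 and ITGB5 (6.49% of all genes) and below in ITGA6 and ITGB2 (6.84%).

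ITGB5 ran from 537 to 666 CPM with AG1 against 411 to 471 CPM with PC and 353 to 491 CPM with ORC (adjusted p = 0.00978). ITGA10 ran from 8.65 to 11.3, 5.47 to 5.85 and 4.17 to 6.63 CPM with AG1, PC and ORC, and ITGA6 from 2.14 to 2.91, 4.03 to 4.59 and 3.69 to 4.74 CPM (adjusted p = 0.00713 and 0.0231). ITGA2B, the platelet receptor chain, passed as well, at 4.58 to 4.97, 2.18 to 2.98 and 2.16 to 4.69 CPM (adjusted p = 0.0338), as did ITGB2 (adjusted p = 0.0374). Marker lists also differed between codes. The 10 macrophage markers summed to 8287 to 9243 CPM with AG1 and 9790 to 10399 CPM with PC and ORC. In the same order, the 6 MSC markers summed to 1262 to 1613 and 1635 to 1962 CPM. The 5 smooth muscle and pericyte markers summed to 30.3 to 53.5 and 14.9 to 21.3 CPM, and each list was without overlap. Of the MSC list, CD44 and ENG read at least 1020 and 237 CPM in every macrophage library, and every other gene at most 4.72 CPM. Of the smooth muscle list, ACTA2 and MYH11 read at least 9.16 and 4.50 CPM, and every other gene at most 0.344 CPM. The 8 lymphocyte markers overlapped, at 383 to 533 CPM with AG1, 461 to 688 CPM with ORC and 631 to 773 CPM with PC. The part of these lists in the members' differences was not tested.

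The change with activated medium was also compared between joint cell types, as an interaction over 27 libraries. Of 36 members, 0 passed in any of the 6 comparisons, nor did any of 16584 genes (0.0%). At an unadjusted p under 0.05 the members numbered at most 2, where 1.72% to 4.38% of all genes did. ITGA1 differed between TLR-MSC-CM and resting MSC-CM by 0.39 on the log2 scale in macrophages and by -0.07 in synoviocytes, a difference of 0.45 with adjusted p = 1. LAMB2 gave a difference of -1.48 for STING-MSC-CM between macrophages and synoviocytes (adjusted p = 1), with the macrophage values under 1 CPM. ITGAM, ITGAL, LAMB4, LAMA2, ITGB6 and ITGA3 had the other smallest p-values, and each adjusted p was 1.

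Cytokines alone were compared with no addition on 1 library each, so the values have no replicate check and no test. In synoviocytes the labels code the library with cytokines alone PC and the one with no addition ORC. Cytokines and code cannot be told apart there. In chondrocytes and macrophages both libraries are coded ORC. A difference of at least 2-fold on CPM + 0.5 was counted. Chondrocytes had 8 of 32 members past it (25.0%), where 9.06% of all genes were. Synoviocytes had 2 of 31 (6.45%; 3.95% of all genes) and macrophages 0 of 26 (0.351% of all genes).

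ITGA11 was low with cytokines in both stromal cells, at 143 CPM against 595 CPM with no addition in synoviocytes and 92.4 against 524 CPM in chondrocytes. The cytokine-stimulated libraries given medium read 83 to 175 CPM in synoviocytes and 91.8 to 381 CPM in chondrocytes, all under the library with no addition. ITGB8 was high with cytokines, at 71.9 against 30.7 CPM in synoviocytes and 36.1 against 5.16 CPM in chondrocytes. In macrophages ITGB8 read 46.1 and 37.7 CPM, and 51.1 to 92.2 CPM with medium.

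The other members past 2-fold in chondrocytes were ITGA8 at 321 against 137 CPM, LAMA4 at 264 against 128 CPM and ITGB3 at 34.6 against 10.2 CPM. ITGAX read 3.25 against 0.479 CPM. Lower with cytokines were ITGA6, at 16.6 against 43.1 CPM, and LAMB3, at 9.23 against 19.7 CPM. The chondrocyte marker SOX9 read 8.85 with cytokines and 46.6 CPM with no addition. Most of these members also separated the codes among chondrocyte libraries given medium. ITGA8, LAMA4, ITGB3, ITGB8 and ITGAX were lower and ITGA11 higher with ORC, the same side as no addition here. LAMB3 went the other way, and ITGA6 overlapped between codes. The 10 chondrocyte markers summed to 734 CPM with no addition and 163 CPM with cytokines alone. The part of this split in the differences was not tested.

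**Figure D5:**
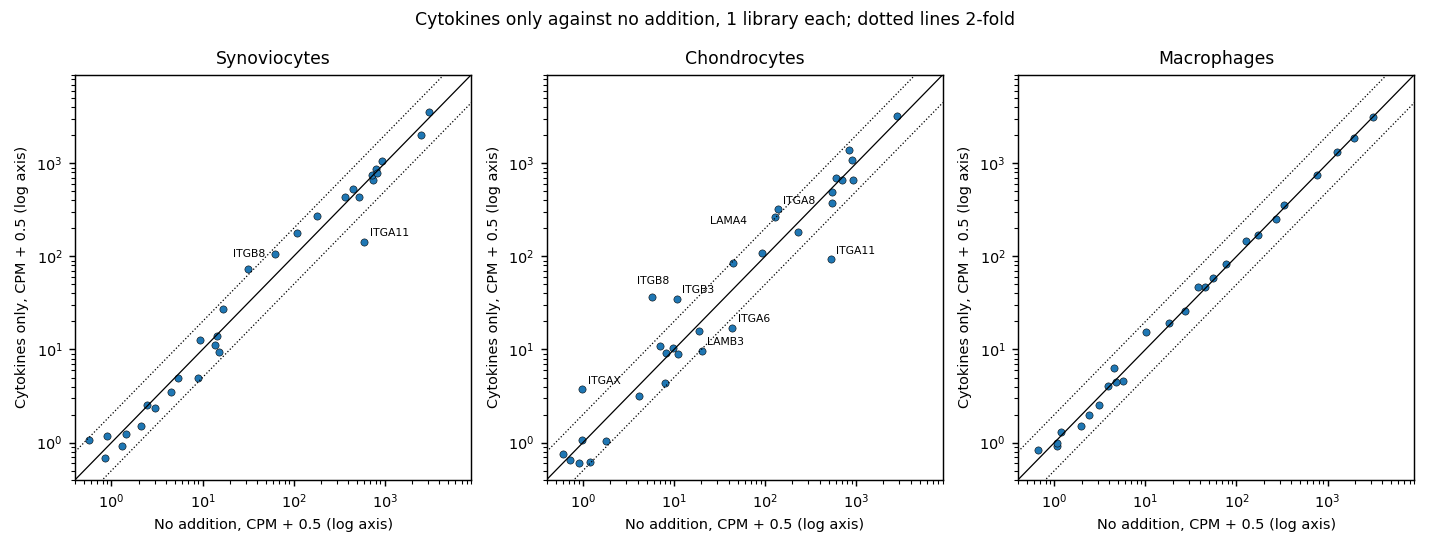
Members with cytokines alone (vertical) against no addition (horizontal) in each joint cell type, as CPM + 0.5 on log axes, 1 library each, with the solid line at equality and dotted lines at 2-fold. In chondrocytes 8 of 32 members lie outside the dotted lines, in synoviocytes 2 of 31 and in macrophages 0 of 26.

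Genes that work with integrins and laminins were read in 3 lists: 30 cytoplasmic adaptors, 22 listed integrin ligands, and 24 listed genes of basement membranes and laminin binding. Between media or agonists, 0 genes of these lists passed the test. Of basement membrane genes, 17 of 21 tested were lower in macrophages than in synoviocytes and 0 higher, where 35.1% of all genes were lower and 36.6% higher. Against chondrocytes 18 of 21 were lower and 0 higher. COL4A1, a network collagen of basement membranes, read 4.59 ± 0.938 CPM against 2367 ± 158 CPM (means ± SD, n = 3, log2 fold change -9.03, adjusted p = 2.19e-10), in the order macrophages, synoviocytes. SGCE, a sarcoglycan, read 0.0818 ± 0.0865 CPM against 94.3 ± 13.8 CPM.

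Of the adaptors, 27 of 30 differed between macrophages and synoviocytes (9 higher, 18 lower), where 71.6% of all genes did. FERMT3, the kindlin of blood cells, read 933 ± 49 CPM against 1.26 ± 0.424 CPM in synoviocytes, and PARVG, a leukocyte parvin, 24.5 ± 2.74 CPM against 0.709 ± 0.181 CPM, both higher in macrophages. PARVA, the widely expressed parvin, read 1.51 ± 0.101 CPM against 316 ± 14.8 CPM and was lower (log2 fold change -7.73). Of the ligands, 18 of 22 differed (7 higher, 11 lower, 81.8%), against the same 71.6% of all genes. SPP1, which encodes osteopontin, read 5523 ± 1236 CPM against 1.51 ± 0.214 CPM and ICAM3, a counter-receptor of ITGAL, 149.9 ± 3.38 CPM against 5.86 ± 1.19 CPM. THBS2, a thrombospondin, was lower, at 0.536 ± 0.137 CPM against 4485 ± 790.3 CPM. The lists gave similar counts against chondrocytes, with 25 of 30 adaptors (9 higher, 16 lower) and 18 of 22 ligands (8 higher, 10 lower), where 71.5% of all genes differed.

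Chondrocytes and synoviocytes differed in 13 of 30 adaptors (2 higher in chondrocytes, 11 lower), 10 of 22 ligands (3 higher, 7 lower) and 9 of 21 basement membrane genes (1 higher, 8 lower), where 8.31% of all genes were higher and 9.84% lower. TNS3, a tensin, read 126 ± 21.9 CPM against 11.4 ± 2.21 CPM in synoviocytes, and APBB1IP, the adaptor that links RAP1 to talin, 0.278 ± 0.264 CPM against 67.8 ± 0.887 CPM. AGRN, an agrin that binds laminin, was higher in chondrocytes (181 ± 7.93 CPM against 61.2 ± 4.88 CPM, log2 fold change 1.57). COL4A1 and NID2, a nidogen that joins laminin to collagen, were lower, with log2 fold changes of -2.39 and -1.95.

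Partner genes differed between donors and codes as well. In MSC, 24 of 30 adaptors, 14 of 21 ligands and 16 of 19 basement membrane genes differed between donors (55.9% of all genes). COL4A2 read 2423 ± 443 CPM in donor PC, 614 ± 163 in donor 99 and 127 ± 29 CPM in donor 92 (means ± SD, n = 4 conditions). JAM2, a junctional integrin ligand, read 123 ± 33.6, 365 ± 153 and 2.09 ± 0.916 CPM. In chondrocytes, 16 of 30, 16 of 20 and 13 of 20 differed between codes (40.1% of all genes). VCAM1, a ligand of ITGA4, read 25.9 ± 6.05 CPM with ORC against 247 ± 13.2 and 258 ± 18.5 CPM with PC and AG1 (n = 3 media, adjusted p = 7.46e-11). In macrophages, 8 of 30, 7 of 19 and 2 of 18 differed (15.4%), and in synoviocytes 0 in each list (0.0%).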

How the data were processed

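RNA-seq libraries of 12 MSC and 33 joint cell samples were analysed. Per the labels and methods, the authors deposited raw counts per gene, made by HTSeq 0.11.0 on an Ensembl annotation from reads that Cutadapt had trimmed and STAR had placed on EquCab3.0. The strand setting of the counting is not given in the sources used here. Values of 1000000 or more are written to 3 digits in the files (no member). From these counts, library totals were scaled by TMM and CPM computed. Genes with a total of at least 10 counts in a comparison's libraries entered edgeR 4.0.16 quasi-likelihood tests (R 4.3.3) across all genes, adjusted by Benjamini-Hochberg, with adjusted p under 0.05 as the call. DESeq2 1.42.0, other scalings and filters, a replicate block (MSC donor or library code) and leave-one-out fits were alternatives. The main edgeR fit and DESeq2 were tested on simulated counts with known changes, for some of the comparisons only. Those counts held no shared spread of libraries of 1 donor or code, and the other alternatives were not simulated. Libraries of the same donor in MSC (r = 0.66 to 0.90) and of the same code in chondrocytes (0.59 to 0.90) and macrophages (0.36 to 0.60) deviated together, but not in synoviocytes (-0.40 to 0.39). The pairing comes from the MSC donor and, in joint cells, from the code in the labels, whose meaning is not settled. Differences of single libraries used CPM + 0.5 and a 2-fold limit.

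The members and lists were chosen with earlier results of these data known. Named genes were, per comparison, up to 6 called members by smallest p with both directions represented, or the 2 smallest p-values where none was called. Between cell types, the member with the largest summed CPM per subfamily and called members without overlap in the media were also named. Of the partner lists up to 2 called genes per direction were named, and other genes are given by ranges and counts. The values of 1 member are not reported here, and it is counted among the members.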

Additional observations from a re-analysis of the deposited data

How the results depend on the processing

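Of 26 counts of members called, 23 stayed within 1.5 times under every alternative run (scaling, filter, DESeq2, replicate block, leave-one-out). Of these, 19 were counts of 0 and 4 were above 0. Leaving out 1 library moved 3. The count of chondrocytes against synoviocytes ranged from 9 to 15, with 9 without the synoviocyte library of PC. The count between codes ranged from 0 to 8 in synoviocytes, with 8 without the resting library of ORC, and from 1 to 8 in macrophages, with 1 without the resting library of AG1 and 4 without the resting or TLR-MSC-CM library of PC. Fits with the donor or code as a replicate block changed no call of a member between media (0 in each). All 22 counts of members refitted with the block, those between cell types among them, stayed within 1.5 times. Over all genes the block gave 336 calls for STING-MSC-CM against TLR-MSC-CM in macrophages and 80 against resting MSC-CM. In synoviocytes, libraries of the same code did not deviate together.

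Of 76 named values, 3 turned sign under leave-one-out: ITGB8 with TLR3 agonist (-1.12 to 0.25), ITGB8 with CpG (-1.34 to 0.014) and LAMA3 with CpG (-0.042 to 0.51). Their cause was not tested. Members near 3 counts per library (0.0557 to 0.129 CPM) were not resolved at this depth. The joint cells have 3 libraries per medium, under codes of unsettled meaning, which limits every test.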
